A study of Mus musculus with 24 samples.

Results

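BAF180 loss was described in resting Naïve CD4+ T cells, on the 3 WT and 3 BAF180-deficient resting Naïve arrays among the 24 arrays of the series. The other 18 arrays are from the same genotypes, with 3 for each genotype and state. They hold Naïve cells after 24 h on anti-CD3 and anti-CD28, cultured Th2 cells, and Th2 cells after 1.5 h with PMA and ionomycin. Members were chosen by their array labels alone, so no measured value entered the choice. The cells of both genotypes were Naïve CD4+ cells purified by surface markers with beads from spleen and lymph nodes of mice 4 to 6 weeks old, and they had not been cultured or stimulated. The labels call the strain Balb/c and the genotype a conditional knockout of Pbrm1, the gene of BAF180. The methods describe another, mixed background and a loxP-flanked exon that CD4-Cre removes in T cells, from late thymic development on. The study describes its array samples as pairs of WT and BAF180-deficient mice, and the labels do not say which arrays form a pair. Whether the WT mice carried CD4-Cre is not given in the sources used here. Since the labels do not name the mouse of an array, p-values measure the spread between arrays, which may be partly technical. Unless stated otherwise, that spread was pooled within groups over all 24 arrays. An SE is therefore not that of the resting Naïve arrays alone.

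BAF180 is the bromodomain subunit that marks the PBAF form of the SWI/SNF complex, a machine that slides and evicts nucleosomes with the energy of ATP. The bromodomains bind acetylated histones, and PBAF can act at genes that it activates and at genes that it represses. A Naïve CD4+ T cell is a quiescent cell that left the thymus and has not met its antigen. Regulatory T cells and central memory T cells can carry the same surface markers, so the purification does not exclude them.

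RNA levels were read by 14246 probes of 10423 genes and are given as normalised log2 intensity, so that a difference of 1 is a 2-fold change. A level of a probe is not comparable with that of another probe. Between 8047 and 9498 probes were detected on the WT arrays and between 8417 and 9234 on the BAF180-deficient arrays, and replicate arrays of a genotype correlated at 0.949 to 0.978 across probes. The T cell genes of the CD4 T cell identity list were all detected on these arrays, with summed intensities of 26441 to 27922 in WT and 24575 to 28525 in BAF180-deficient cells. Both C arrays stood apart. BAF180-deficient replicate C had Xist, the RNA that coats an inactive X chromosome, at 8.60 to 8.80 in all 4 cell states, against 4.20 to 4.97 on the other 20 arrays. The same replicate had Ddx3y, a Y-linked helicase gene, at 4.90 to 6.13 against 7.95 to 9.99 on the others. WT replicate C had an erythroid summed intensity of 16525, against 2876 and 519 on WT replicates A and B, and a myeloid one of 14776, against 5458 and 5978. The count of genes and the lists that these arrays move are therefore also given without them.

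Pbrm1 was measured by 3 probes that lie close together on the transcript. They are shown because they decide how far the genotype can be read from these arrays. The first 30 bases of each, as deposited in the probe annotation, are printed with capitals for bases that another Pbrm1 probe also covers, and each name gives the first transcript base of the probe.
Pbrm1 probe from base 2024: cCCAAGAAAGAGTGTAAGTGGACACAAGCT
Pbrm1 probe from base 2025: CCAAGAAAGAGTGTAAGTGGACACAAGCTG
Pbrm1 probe from base 2060: GCACATAGCTGTGCAgggtagactgcctac

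The probe from base 2060 was the brightest and read 8.20, 8.72 and 8.69 in WT replicates A, B and C and 7.88, 7.28 and 7.41 in BAF180-deficient replicates A, B and C. Pbrm1 was thus lower on every BAF180-deficient array, and the genotypes did not overlap. The difference was -1.01 (SE 0.227), which is 0.496 of the WT level, with an adjusted p of 0.121 in limma. It was the smallest of the 4 cell states, with -1.63 in stimulated Naïve, -1.86 in resting Th2 and -1.42 in stimulated Th2 cells, and these differences between states were not past the adjusted threshold of 0.05. The other 2 probes were near background, with differences of -0.41 (base 2024) and -0.52 (base 2025) and adjusted p of 0.803 and 0.694. Whether any probe lies in the removed exon was not determined here, so Pbrm1 RNA checks the labels only as far as the transcript falls. From these probes, RNA of cells in which Cre did not act cannot be told apart from a shortened transcript. By immunoblot the study found BAF180 protein absent from T cells of the deficient mice. The blot shows Th2 cells, not resting Naïve cells. Of 17 measured SWI/SNF subunits Pbrm1 alone passed, and the median difference of the list was -0.02. Smarca4, the BRG1 ATPase, differed by 0.23, Arid2, another PBAF subunit, by -0.01, and Smarcb1, a core subunit, by 0.49 (adjusted p 0.788). Brd7, which the study also names as specific to PBAF, Phf10 and Arid1b had no probe, and Arid1a was detected on no array.

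Loss of BAF180 in resting Naïve cells went with changes in 96 genes, 52 higher and 44 lower. The genes with the largest rises included Smpdl3b, a lipid-modifying enzyme of the cell membrane, Aldh5a1, a mitochondrial dehydrogenase, Lamc1, a laminin chain, and S100a6 and Klrg1, both known from memory T cells. Those with the largest falls included Car11, a carbonic anhydrase-related protein, 4930486L24Rik, a RIKEN gene without a name of its own, Neurl3, a ubiquitin ligase, Dapl1 and Pbrm1 itself. Most changes were below 2-fold. A gene was counted here when it had a probe that passed 4 criteria modelled on those of the methods. These asked for a Z-ratio beyond 1.5, an FDR under 0.30, a p under 0.05 and a positive mean signal, which every probe has after this normalisation. The Z-ratio was taken here as the log2 difference over the SD of all differences, so that 1.5 stands for 0.357, and with Z-scores of log10 intensity in its place 31 genes were counted. By these criteria 0.921% of all genes changed, 0.499% upward and 0.422% downward, and the limit of 0.30 admits false calls by design. At an adjusted p below 0.05, 15 genes remained, 6 higher and 9 lower.

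**Figure D1:**
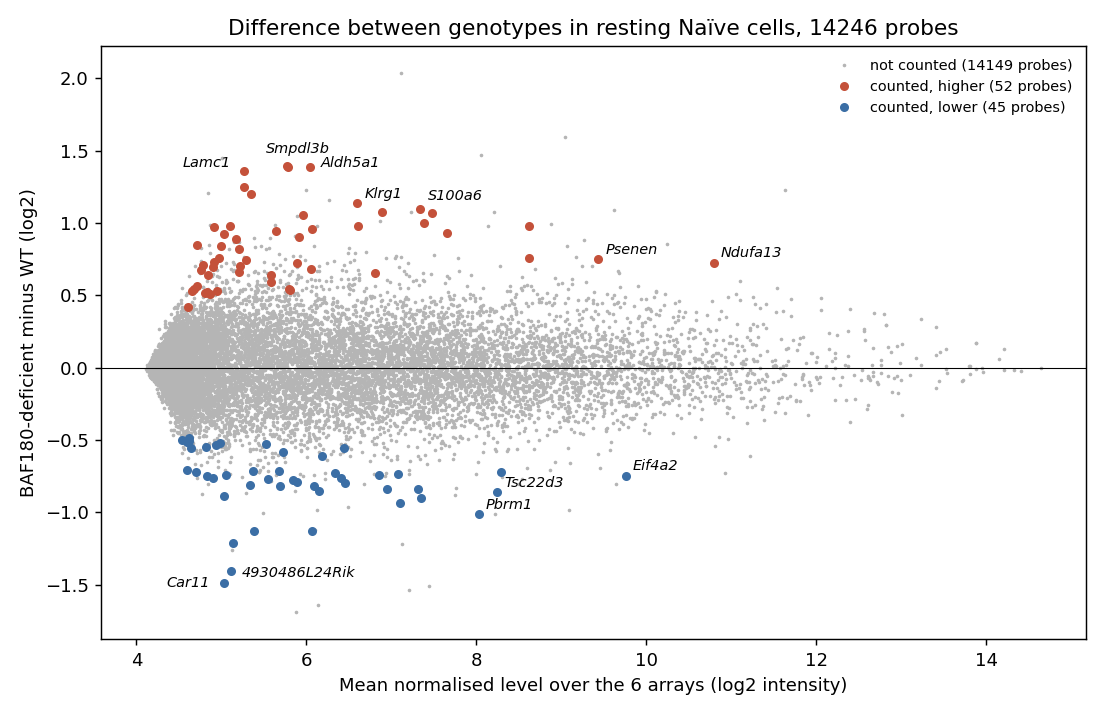
Each point is 1 of 14246 probes, with the mean normalised level over the 6 resting Naïve arrays on the x axis (log2 intensity) and the BAF180-deficient minus WT difference on the y axis (log2). Coloured points are the 97 probes that met the 4 criteria, and they lie mostly at low and middle levels and within 1.5 of 0.

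The comparison was repeated with the replicate letters as pairs. With the letter as a block across all states 120 genes met the criteria (1.15%), and with each letter within a cell state as its own pair 569 did (5.46%), 304 higher and 267 lower. Of the 96 genes, 94 met the criteria in all 3 fits. The pairing of the resting Naïve arrays themselves was uneven: partner arrays deviated together in C (correlation 0.453) and A (0.141), but not in B (-0.0026). On the 6 resting Naïve arrays alone, limma counted 0 genes with the replicate block, 1 without it and 0 when the 6 arrays were also normalised apart from the rest (668 probes with the block and 545 in the last case had an unadjusted p below 0.05).

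The arrays of the genotypes did not overlap in 86 of the 96 genes, against 7.98% of all genes at their brightest probe (4.37% higher and 3.61% lower). Since a gene had to differ to be counted, that share describes the 96 genes and supports nothing further. Many were dim: 45 were detected on all 6 arrays, while 10 were detected on no WT array and 13 on no BAF180-deficient array. For the last 2 groups a fold is a lower bound, set by the dimmest detected signal of each array. WT replicate C decided more of the count than any other array, since without it 598 genes met the criteria, 90 of them among the 96. Without BAF180-deficient replicate C there were 170 genes, of which 71 were shared, and the part of either array in the count was not tested.

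The leading genes described next were taken among the counted genes whose arrays of the genotypes did not overlap, so that their separation is part of the choice. Among the genes that rose, Aldh5a1 had the lowest adjusted p. Aldh5a1 encodes succinate semialdehyde dehydrogenase, which ends the breakdown of the transmitter GABA. Its level was 4.92, 5.48 and 5.66 in WT and 7.15, 6.46 and 6.61 in BAF180-deficient cells. The lowest BAF180-deficient array was above the highest WT array, and the difference was 1.38 (SE 0.215, adjusted p 0.0095), a 2.61-fold rise. Aldh5a1 was also among the 4 of these 96 genes that met the criteria in stimulated Naïve cells, with a difference of 1.02 there.

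Hjurp, the chaperone that places the centromeric histone CENP-A, read 6.5, 7.16 and 7.0 in WT and 7.95, 8.06 and 7.65 in BAF180-deficient cells. The groups did not overlap and the difference was 1.00 (SE 0.185, adjusted p 0.0301). Hjurp met the criteria in stimulated Naïve cells too, at 0.80. Man2a2, a Golgi mannosidase that trims N-glycans, was detected on no WT array, with 4.92, 4.47 and 4.53, and on all 3 BAF180-deficient arrays, with 6.01, 5.72 and 5.93. It was at least 2.04-fold higher (adjusted p 0.0149), although the other 2 probes of Man2a2 differed by only 0.36 and 0.62 and did not pass.

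The highest fold changes belonged to dim probes. Smpdl3b read 4.30, 5.57 and 5.41 in WT and 6.81, 6.29 and 6.33 in BAF180-deficient cells, a difference of 1.39 (SE 0.297, adjusted p 0.0969). Lamc1, which encodes the gamma 1 chain of laminin, read 4.30, 4.32 and 5.13 against 6.31, 5.73 and 5.80, a difference of 1.36 (adjusted p 0.0969). In both genes every BAF180-deficient array was above every WT array. Ier5l, an immediate early response gene of unclear function, had the largest rise of all counted genes, 1.40 (adjusted p 0.242), but its arrays overlapped, with 4.53, 5.98 and 4.70 against 7.25, 6.86 and 5.28.

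Gstt2, a glutathione transferase, Osbpl3, an oxysterol-binding protein, Tspan17, a tetraspanin, S100a13, a small calcium-binding protein, Ebpl, a relative of sterol isomerase, and Tmem256, a membrane protein, rose by 1.2, 1.08, 1.05, 0.98, 0.98 and 0.98, with adjusted p between 0.121 and 0.277. For Osbpl3, Tspan17 and Ebpl another probe of the gene gave a smaller difference that did not pass unpaired, 0.67, -0.02 and 0.68. Further genes that rose, named after their values were seen, were Slamf1, a costimulatory receptor of T cells (0.93), Abcb1b, a drug efflux pump (0.96), Psenen, a subunit of gamma-secretase (0.75), and Acvr2b, a receptor for activins (0.90).

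Among the genes that fell, Car11 and 4930486L24Rik were detected on every WT array and on no BAF180-deficient array. Car11 read 5.84, 5.81 and 5.67 in WT and 4.37, 4.28 and 4.21 in BAF180-deficient cells. It was at least 1.95-fold lower, with a fitted difference of -1.49 (SE 0.189, adjusted p 0.00096). The WT arrays of Car11 lay close together and far from the BAF180-deficient arrays.

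The probe of 4930486L24Rik begins with the following 30 bases, printed because this gene gave the lowest adjusted p of the comparison, and no base is marked by capitals.
4930486L24Rik probe from base 937: gttctggtggtcggctatggttttgaggga
It read 6.11, 5.86 and 5.49 in WT and 4.43, 4.52 and 4.29 in BAF180-deficient cells. The groups did not overlap, the gene was at least 2.02-fold lower, and the fitted difference was -1.41 (SE 0.156, adjusted p 0.000222).

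Neurl3 read 5.88, 5.87 and 5.47 in WT and 4.30, 4.80 and 4.49 in BAF180-deficient cells, a difference of -1.21 (SE 0.167, adjusted p 0.0023). Its brightest probe differed by only -0.64 and did not pass (adjusted p 0.312). Dapl1, a gene known from quiescent Naïve T cells, read 5.93, 6.49 and 5.41 against 4.76, 4.73 and 4.95, a difference of -1.13 (adjusted p 0.0259). Dnajc6, auxilin, which uncoats clathrin vesicles, read 7.02, 6.29 and 6.59 against 5.55, 5.73 and 5.21, a difference of -1.13 (adjusted p 0.0171), and the second probe of Dnajc6 fell too. Each of these 3 genes was detected on every WT array.

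Gpr35, a receptor for kynurenic acid and related acids, read 5.73, 5.31 and 5.40 in WT and 4.50, 4.87 and 4.40 in BAF180-deficient cells, a difference of -0.89 (adjusted p 0.0096), while another probe of Gpr35 differed by -0.04. Art2b, an ADP-ribosyltransferase on the surface of resting T cells, read 7.52, 7.85 and 7.82 against 7.20, 6.58 and 6.88, a difference of -0.84 (adjusted p 0.0791). Tsc22d3, the glucocorticoid-induced GILZ, read 8.31, 8.81 and 8.90 against 8.24, 7.48 and 7.72, a difference of -0.86 (adjusted p 0.241), and the brightest Tsc22d3 probe gave -0.54 and did not pass. Ampd1, an AMP deaminase, LOC229665, a predicted gene, and Hsd17b11, a steroid dehydrogenase, fell by 0.85, 0.93 and 0.90. A dimmer probe of Hsd17b11 differed by -0.31 and did not pass (adjusted p 0.943). Traf5, an adaptor of TNF receptors, and Ppox, an enzyme of haem synthesis, both named after their values were seen, fell by 0.72 and 0.74.

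**Figure D2:**
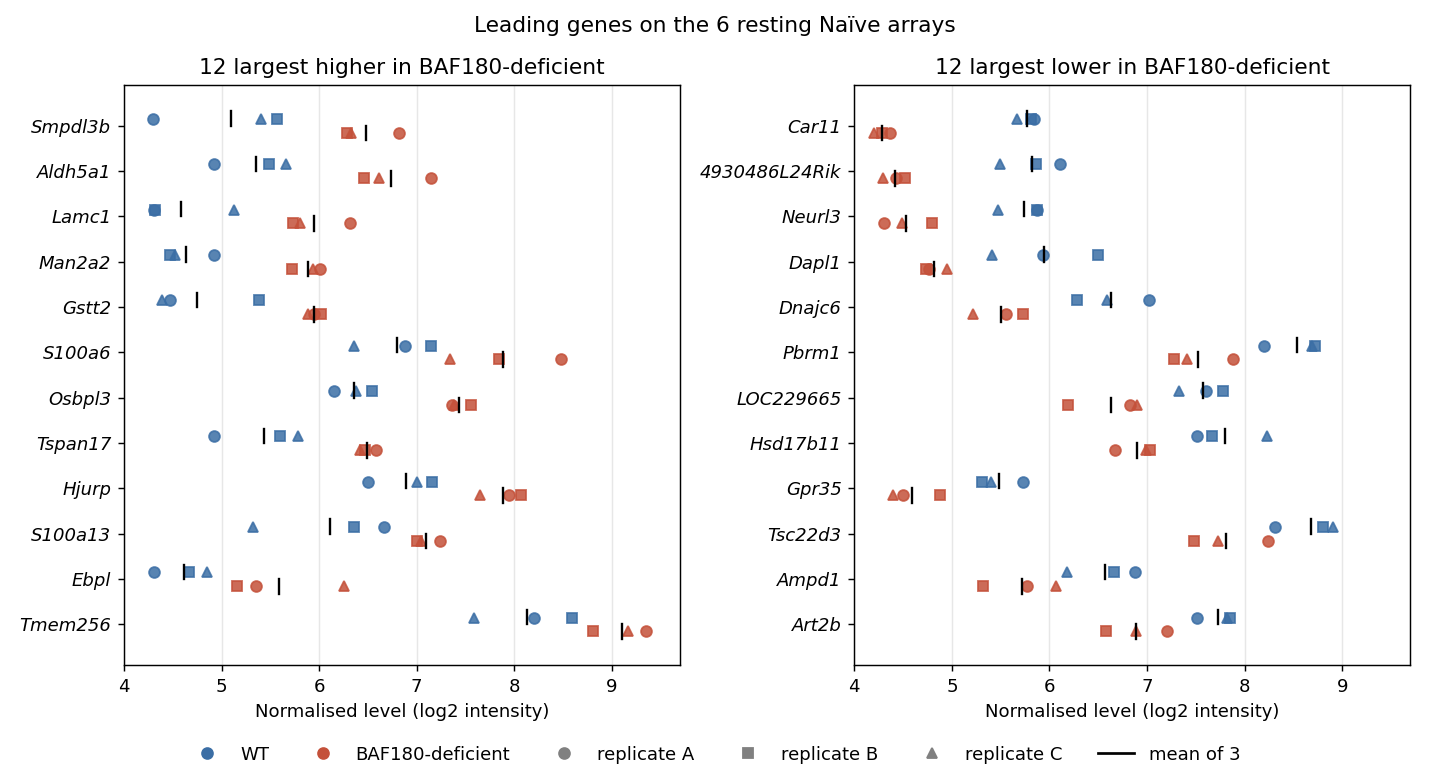
Normalised level (log2 intensity, x axis) of the 12 genes with the largest difference in each direction among the counted genes whose arrays of the genotypes did not overlap. Blue points are WT, red points BAF180-deficient, shapes stand for replicates A, B and C and each line for the mean of 3, and the widest gap is that of Car11, 5.67 to 5.84 against 4.21 to 4.37.

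Pik3cg, the gamma subunit of PI3-kinase, depended on the pairing. It read 7.17, 7.23 and 8.61 in WT and 8.44, 8.65 and 9.14 in BAF180-deficient cells, so that the C arrays of both genotypes were high. The unpaired adjusted p was 0.576, with the letter as a block it was 0.0176, and with pairs within the cell state it was 0.0325, for a difference of 1.07 in each fit.

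Transcripts typical of memory and effector T cells were higher in BAF180-deficient cells on balance. These are genes that Naïve cells hold low and that antigen-experienced cells express, such as small S100 proteins, galectins, chemokines and adhesion receptors. Of 26 measured members 22 were higher and 4 lower, where 50.5% of all genes were higher, and the median difference was 0.32 against 0.00 over all genes. By the criteria 2 of the 26 rose, S100a6 and Klrg1, and none fell, where 0.499% of all genes rose and 0.422% fell. At an unadjusted p below 0.05, 6 members were higher and none lower, against 4.08% higher and 3.13% lower of all genes. The summed level was 6840, 6644 and 7246 in WT replicates A, B and C and 9975, 8488 and 7955 in BAF180-deficient replicates A, B and C. Every BAF180-deficient sum was thus above every WT sum. The difference of the letters was widest in A, where the median was 0.58, and narrower in B (0.33) and C (0.10). This list and those below were chosen with earlier results of these data known. Their counts and medians are thus no independent evidence.

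S100a6, a calcium-binding protein that rises in activated and memory T cells, read 6.88, 7.15 and 6.35 in WT and 8.47, 7.85 and 7.34 in BAF180-deficient cells. The groups did not overlap, and S100a6 rose by 1.09 (SE 0.298, adjusted p 0.263). Klrg1, an inhibitory receptor of late effector T cells and NK cells, read 5.11, 5.90 and 7.10 against 7.18, 6.82 and 7.50, with overlapping arrays and a difference of 1.14 (SE 0.316, adjusted p 0.280). Lgals1, galectin 1, read 7.49, 7.85 and 7.60 against 8.72, 8.56 and 8.60, without overlap, but the adjusted p of 0.477 missed the limit. Ccl5, the chemokine RANTES, read 8.21, 9.26 and 7.69 against 9.47, 9.51 and 9.14, a difference of 0.99 (adjusted p 0.664). S100a10, a partner of annexin A2, read 6.59, 6.67 and 6.92 against 7.82, 7.38 and 7.28. With pairs within the cell state Lgals1, Ccl5 and S100a10 met the criteria as well, which made 5 of 26 where 2.92% of all genes rose.

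Cd44, the surface protein by which memory cells are usually gated, had a small difference beside its error. It read 7.84, 7.31 and 8.13 in WT and 7.76, 8.08 and 7.81 in BAF180-deficient cells, a difference of 0.12 (SE 0.245, adjusted p 1.00). By surface staining of lymph node cells, the study found CD44 protein lower and CD62L unchanged on BAF180-deficient T cells. That is a measure of protein, not RNA, and not of the purified Naïve cells. Without BAF180-deficient replicate C the memory list had 23 members higher and 3 lower with a median of 0.40, and S100a6 alone met the criteria. Without WT replicate C it was 21 and 5 with a median of 0.37, and S100a6, Klrg1 and S100a10 met them, where 302 of all 10423 genes rose. Without BAF180-deficient replicate A no member met them and the median was 0.22. None met them either with quantile normalisation without background correction (69 genes counted) or without the detection filter (112 genes counted). With Z-scores of log10 intensity S100a6 alone met them, and with array quality weights Klrg1 alone. In bulk RNA, more memory cells in the purified cells and more of these transcripts per cell cannot be told apart.

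Genes of the Naïve state and of quiescence leaned the other way by less. Of 17 measured members 12 were lower and 5 higher, with a median of -0.12, and Dapl1 alone fell by the criteria. Lef1, a transcription factor of Naïve T cells, read 7.67, 7.15 and 6.22 in WT and 6.81, 6.63 and 6.56 in BAF180-deficient cells, with overlapping arrays (difference -0.35, adjusted p 0.942). Nsg2, a neuronal vesicle gene expressed in Naïve T cells, had a difference of -0.36 with no overlap (adjusted p 0.845). Btg1, an antiproliferative gene of resting lymphocytes, had a probe that met the criteria with pairs within the cell state (-0.73, adjusted p 0.288), and its brightest probe, at -0.33, did not meet them.

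**Figure D3:**
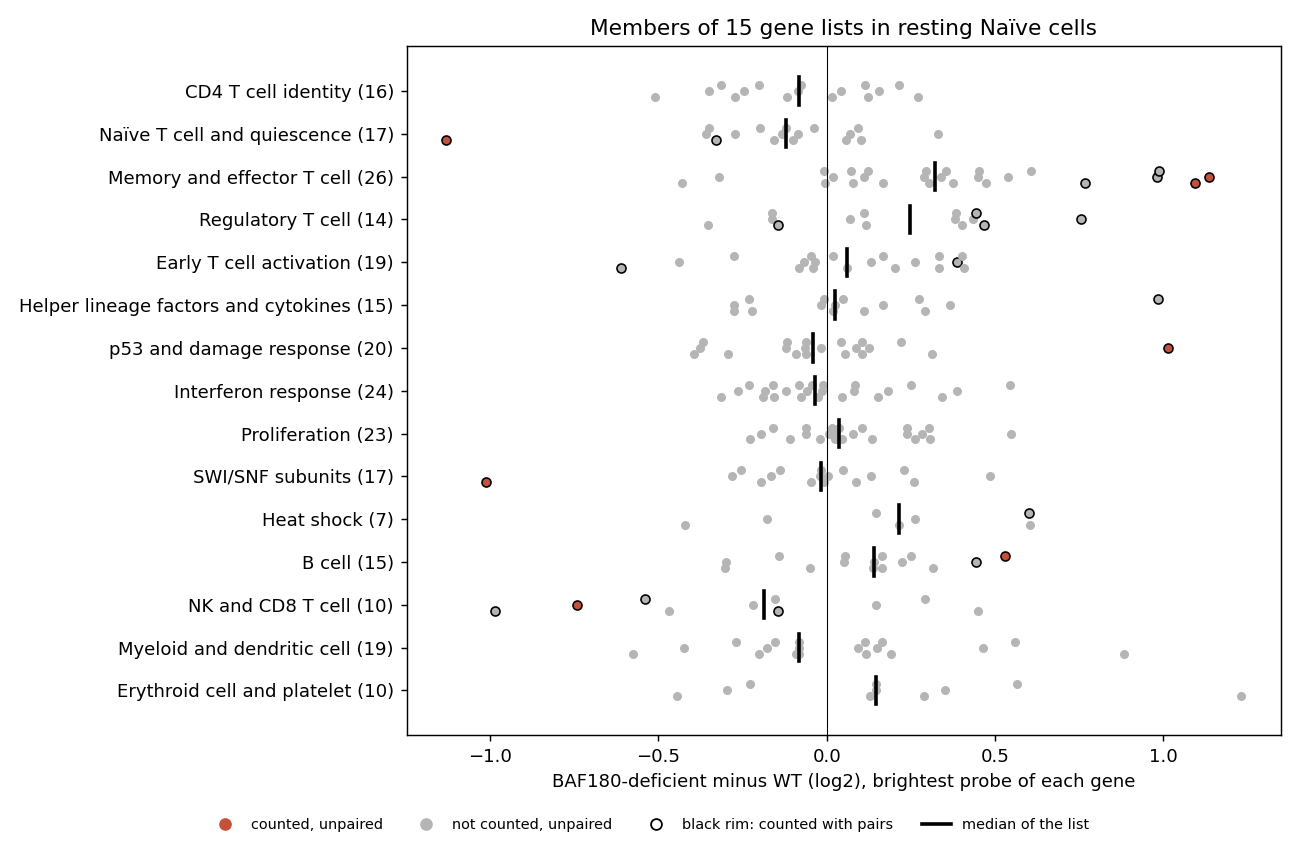
Each point is the brightest probe of 1 member of a gene list, placed by its BAF180-deficient minus WT difference in resting Naïve cells (log2, x axis), with 15 lists on the y axis and a black bar at each median. The memory and effector list has the highest median, 0.32, with 22 of 26 points above 0, and the medians of the other lists lie within 0.25 of 0.

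Regulatory T cell genes were higher on most counts but did not pass in the unpaired comparison. Of 14 measured members 10 were higher and 4 lower, with a median of 0.25, and the summed level was 3041 to 3256 in WT and 3421 to 4156 in BAF180-deficient cells, without overlap. Foxp3, the factor that defines regulatory T cells, read 9.0, 9.05 and 8.43 in WT and 9.44, 9.43 and 8.93 in BAF180-deficient cells, a difference of 0.44 (SE 0.265, adjusted p 0.862). Each letter was higher in the BAF180-deficient partner by a like amount, and with pairs within the cell state Foxp3 met the criteria (adjusted p 0.281). Ikzf2, Helios, read 7.21, 7.62 and 7.38 against 8.47, 8.09 and 7.93 without overlap, a difference of 0.76 (adjusted p 0.487, and 0.217 with pairs, where it met the criteria). Itgae, the integrin CD103, met them with pairs too, at 0.47. With pairs 3 of the 14 members thus met the criteria as higher, where 2.92% of all genes did. Izumo1r, the folate receptor 4 of regulatory T cells, had a dimmer probe that met them with pairs as lower, at -0.49, where 2.56% of all genes fell. Without WT replicate C, 9 members were higher and 5 lower with a median of 0.17. Itgae and Izumo1r then met the criteria, as did 598 of all 10423 genes. The median was 0.15 without BAF180-deficient replicate A and 0.31 without BAF180-deficient replicate C, with 10 members higher in both cases.

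CD4 T cell identity, early activation and helper lineage genes were close to WT. Of 16 identity genes 7 were higher and 9 lower with a median of -0.08, and Cd247, the CD3 zeta chain, had the largest difference, -0.51 (adjusted p 0.656). Of 19 early activation genes 11 were higher and 8 lower with a median of 0.06. None of these met the criteria, and with pairs Dusp2, a phosphatase of MAP kinases, fell by 0.61, where 2.56% of all genes fell. Icos, a costimulatory receptor, had a probe that met the criteria with pairs at 0.79, where 2.92% of all genes rose. The brightest Icos probe, at 0.39, did not meet them. Dusp2 read 11.27, 11.39 and 11.92 in WT and 10.73, 10.77 and 11.25 in BAF180-deficient cells, without overlap. Of 15 helper lineage genes 9 were higher and 6 lower, with a median of 0.02. Without WT replicate C the activation median was -0.16 and the helper median -0.10, and without BAF180-deficient replicate C they were 0.33 and 0.21.

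The study names 6 genes as higher and 3 as lower in Naïve cells without BAF180, a choice made on these arrays, so that their direction is no independent evidence. All 6 were higher, with a median of 0.46, and all 3 were lower, with a median of -0.38, but in the unpaired comparison the criteria were met by Cdkn1a and Smad1 alone. Cdkn1a, the p21 inhibitor of cyclin-dependent kinases, was counted on a dim probe that read 4.47, 4.55 and 4.26 in WT and 5.44, 5.85 and 4.90 in BAF180-deficient cells (at least 1.45-fold higher, since it was detected on no WT array, adjusted p 0.252). Its brightest probe read 7.02, 6.75 and 5.30 against 8.11, 8.04 and 5.96, with overlapping groups but a higher BAF180-deficient array in each letter. The difference of 1.01 had an adjusted p of 0.711 unpaired and 0.0235 with pairs within the cell state. The remaining Cdkn1a probe differed by 0.38 and did not pass (unpaired adjusted p 0.959). Smad1, a transducer of BMP signals, read 6.66, 7.09 and 6.81 in WT and 5.93, 6.29 and 5.96 in BAF180-deficient cells. The difference was -0.80 without overlap (SE 0.217, adjusted p 0.263), while the other Smad1 probe gave -0.24 and did not pass (adjusted p 0.974).

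Il17f, a cytokine of Th17 cells, was detected on no WT array (4.42, 4.43 and 4.30) and on 2 of 3 BAF180-deficient arrays (5.69, 5.85 and 4.55). The adjusted p was 0.541, and 0.295 with pairs, where the gene met the criteria. Gata3, the Th2 factor, differed by 0.28, Dnmt3b, a DNA methyltransferase, by 0.48, and Ifng, interferon gamma, by 0.02, with adjusted p between 0.796 and 1.00. Dicer1, which processes microRNAs, and Gadd45a, a damage response gene, differed by -0.30 and -0.38 (adjusted p 0.875 and 0.960).

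Cell cycle, damage and interferon genes did not move together. Of 20 p53 and damage response genes 9 were higher and 11 lower, with a median of -0.04 and Cdkn1a the only one that passed. The 7 measured inhibitors of cyclin-dependent kinases divided 4 to 3. Of 23 proliferation genes 16 were higher, but the median was 0.04, none passed, and Birc5, survivin, had the largest difference, 0.55 (adjusted p 0.883). Of 24 interferon response genes 15 were lower and none passed, with a median of -0.03. Of 7 heat shock genes 5 were higher and none passed. With pairs Hspe1, a mitochondrial chaperonin, met the criteria at 0.60, where 2.92% of all genes rose.

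Transcripts of cells other than CD4+ T cells were present on all 6 arrays, and the ranges of their sums overlapped between the genotypes. The B cell list, with antigen receptor and antigen presentation genes, summed to 15200 to 18973 in WT and 16042 to 23462 in BAF180-deficient cells. Of its 15 members 11 were higher with a median of 0.14, and Spib, a transcription factor of B cells, rose (4.20, 4.26 and 4.69 in WT against 4.56, 5.17 and 5.01, difference 0.53, adjusted p 0.274, overlapping arrays). Ms4a1, which encodes CD20, was detected on 1 of the 6 arrays, BAF180-deficient replicate C at 5.14, and met the criteria with a replicate block but not in the unpaired comparison of all arrays. Without BAF180-deficient replicate C, 6 members were higher and 9 lower, with a median of -0.04, and none met them. Cxcl13, a chemokine that attracts B cells and is made by stromal and follicular helper cells, was detected on no WT array and on 2 BAF180-deficient arrays (4.34, 4.24 and 4.30 in WT against 4.93, 5.86 and 4.63). It was at least 1.21-fold higher (adjusted p 0.110).

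Erythroid transcripts had the largest spread. Hba-a1, alpha globin, read 11.21, 8.28 and 13.55 in WT and 11.85, 12.36 and 12.52 in BAF180-deficient cells. The WT arrays thus enclosed all BAF180-deficient arrays, and the difference of 1.23 (SE 0.958) had an adjusted p of 0.952. The probe cannot tell Hba-a1 from its near-identical copy. Slc4a1, the band 3 anion exchanger of red cells, read 8.17, 4.86 and 11.79 against 8.04, 9.09 and 9.40 in the same order. The erythroid sums were 2876, 519 and 16525 in WT and 4180, 6140 and 6845 in BAF180-deficient cells, and no member passed. Without WT replicate C, members that met the criteria as higher included Hba-a1, Slc4a1 and Alas2 (haem synthesis in red cells). In that fit 302 of all 10423 genes did. That array had the highest erythroid sum, so leaving it out lowers the summed WT level. The median of the 10 members was then 0.33 instead of 0.15. Without WT replicate B it was -0.15.

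Myeloid transcripts were also highest on WT replicate C. Their sums were 5458, 5978 and 14776 in WT and 6147, 8198 and 8705 in BAF180-deficient cells, and of 19 members 9 were higher and 10 lower, with none past the criteria. S100a8, a neutrophil calcium-binding protein, read 8.56, 7.14 and 10.79 in WT and 9.29, 9.63 and 10.22 in BAF180-deficient cells (difference 0.89, adjusted p 0.879). Lyz2, a lysozyme of macrophages and neutrophils, read 8.95, 8.85 and 11.48 against 9.38, 9.43 and 9.93. Without WT replicate C, 13 members were higher and 6 lower. Camp, Ltf, Lyz2, S100a8 and S100a9, all genes of neutrophil or macrophage granules and cytosol, then met the criteria as higher. In that fit 302 of all 10423 genes did. That array had the highest myeloid sum, so leaving it out lowers the summed WT level. The part of these transcripts in the other results was not tested.

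Of 10 NK and CD8 T cell transcripts 7 were lower, with a median of -0.19. Without WT replicate C 5 were higher and 5 lower, with a median of -0.0056, and without BAF180-deficient replicate C the median was -0.33. Cd160, a receptor of NK and cytotoxic T cells, fell, with 7.04, 7.50 and 7.14 in WT and 6.76, 6.28 and 6.42 in BAF180-deficient cells, without overlap (difference -0.74, adjusted p 0.161). Xcl1, the chemokine lymphotactin, read 6.93, 7.45 and 5.47 against 6.06, 5.97 and 4.85, lower in each letter, and its difference of -0.99 passed with pairs (adjusted p 0.890 unpaired and 0.0705 with pairs). Klrd1, a NK receptor chain, fell with pairs, and a dimmer probe of Cd8b1, a CD8 chain, met the criteria with pairs and, unpaired, without BAF180-deficient replicate C. With pairs these 4 genes met the criteria as lower, against 2.56% of all genes.

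**Figure D4:**
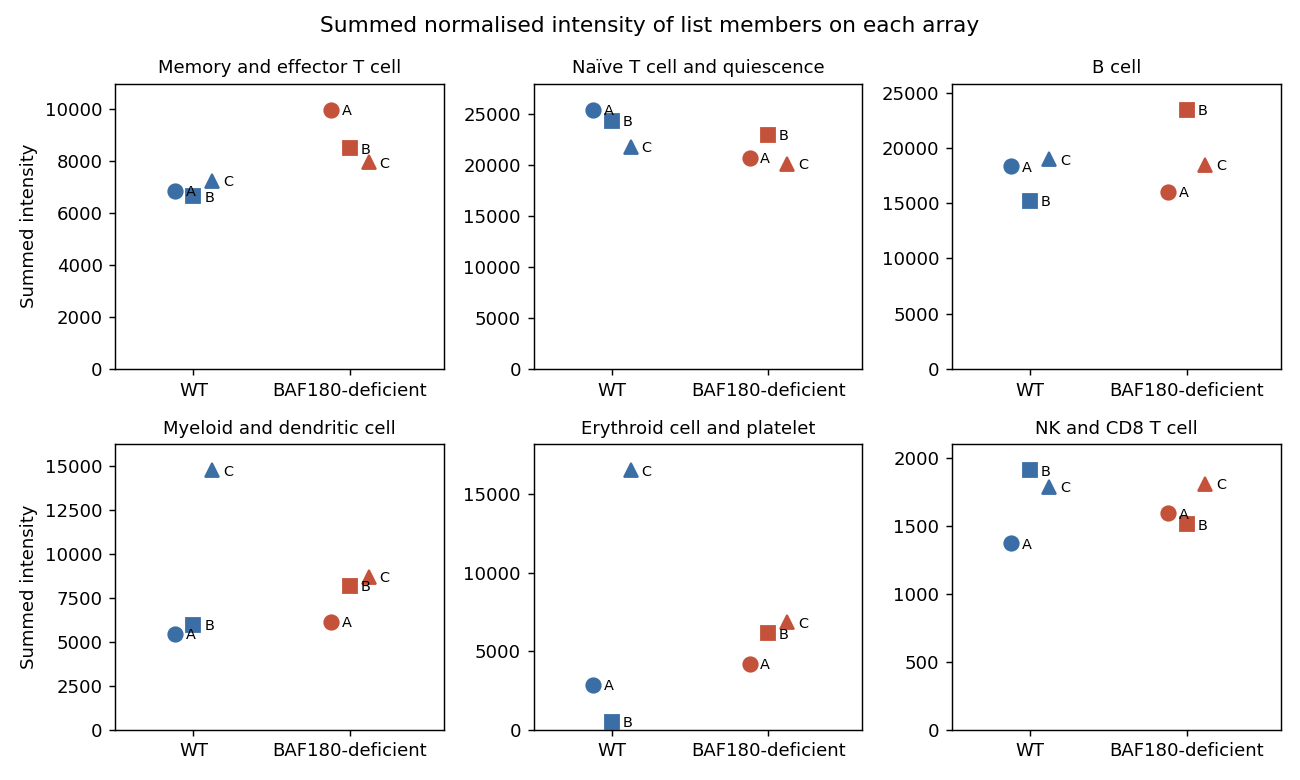
Summed normalised intensity (y axis from 0) of the members of 6 gene lists on each WT and BAF180-deficient array, 1 point per array with its replicate letter. The memory sums of BAF180-deficient cells, 7955 to 9975, lie above those of WT, 6644 to 7246, while the erythroid and myeloid sums of WT replicate C, 16525 and 14776, are the highest of all 6 arrays.

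The changes of resting Naïve cells were compared with those of the other 3 states, measured on other arrays from cells of the same genotypes. BAF180-deficient replicate C had high Xist in all 4 cell states, so the states may share mice, which the labels do not state. If they do, the states are not independent. Of the 52 genes that rose, 39 were higher in stimulated Naïve, 34 in resting Th2 and 35 in stimulated Th2 cells. Over all genes with a difference above 0, 59.2%, 57.9% and 52.4% were. Of the 44 that fell, 37, 40 and 31 were lower there, against 56.4%, 56.8% and 50.8% of all genes below 0. The shared criteria were met by few. Of the 15 genes counted in stimulated Naïve cells 4 were among the 96, Abcb9, a lysosomal peptide transporter, Aldh5a1, Hjurp and Pbrm1. Of the 11 in resting Th2 cells 4 were, Abcb9, Hsd17b11, Pbrm1 and Sdcbp2, a relative of syntenin. Of the 11 in stimulated Th2 cells Pbrm1 alone was.

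A direct test of the difference between states singled out 1 gene. For 4930486L24Rik the genotype difference was lower in resting Naïve than in stimulated Naïve cells by -1.41 (SE 0.221, adjusted p 0.0433) and than in resting Th2 cells by -1.42 (adjusted p 0.0394). It read 4.16 to 4.23 on all 6 stimulated Naïve arrays, where it was not detected, and 7.52 to 8.05 in resting Th2 cells, where the genotypes differed by 0.01. That is 0.00702% of the probes tested in each comparison, and no probe passed against stimulated Th2 cells. The unadjusted p was below 0.05 for 329, 387 and 493 probes against stimulated Naïve, resting Th2 and stimulated Th2 arrays in turn. Neither difference passed an adjusted p of 0.05 when the letter was a block, with 0.0958 and 0.0876.

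**Figure D5:**
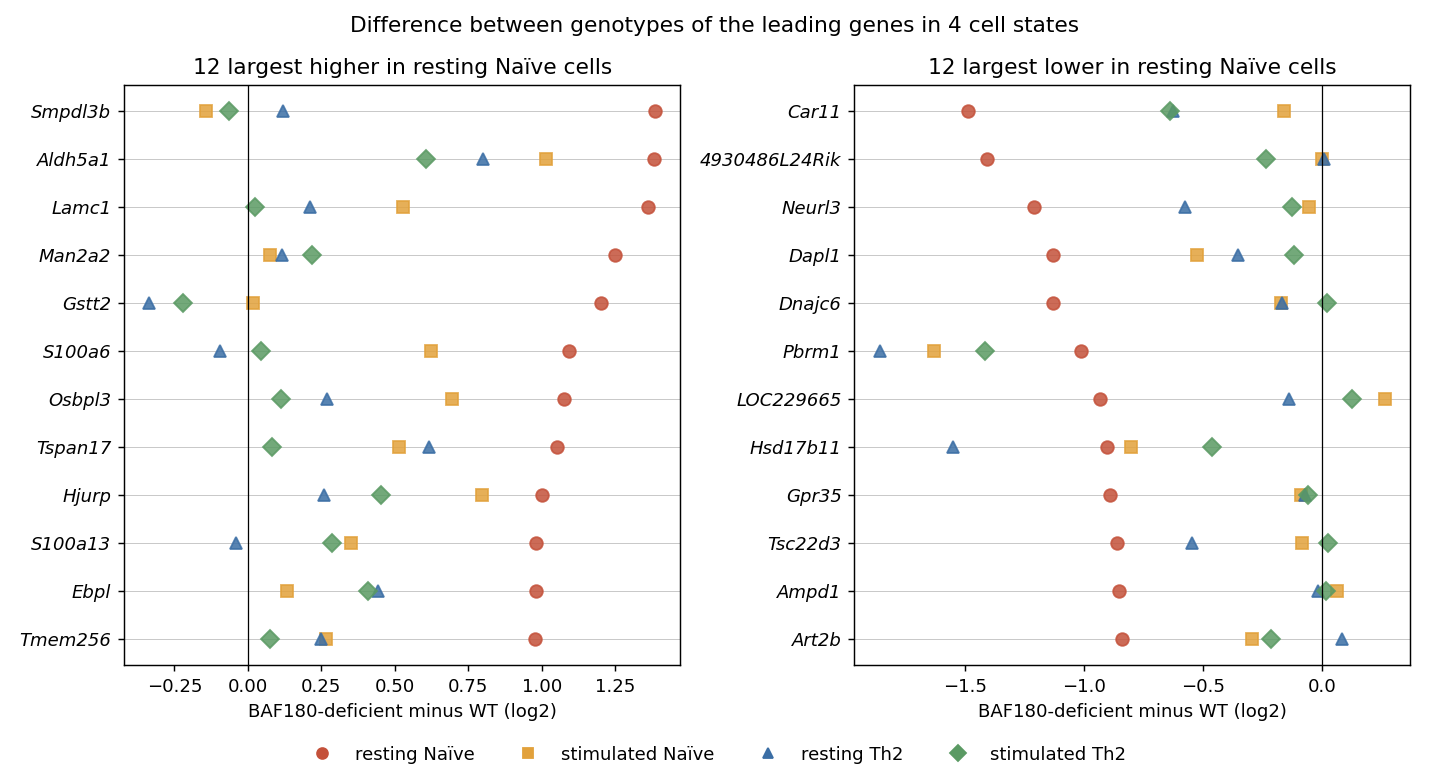
BAF180-deficient minus WT difference (log2, x axis) of the leading genes in each of the 4 cell states, 1 marker shape and colour per state. Pbrm1 is negative in all 4 states, from -1.01 to -1.86, Aldh5a1 is positive in all 4, and 4930486L24Rik is near 0 in stimulated Naïve and resting Th2 cells.

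The members of the memory list were also read in the other states. The median difference was 0.30 in stimulated Naïve cells, -0.01 in resting Th2 and 0.01 in stimulated Th2 cells, against 0.32 in resting Naïve cells. S100a6 differed by 0.62 in stimulated Naïve and by -0.09 and 0.05 in the Th2 states. Lgals1 differed by 0.94, 0.23 and 0.30 in the same order.

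Genes linked to an engineered allele can descend from the strain in which it was made, so the neighbours of Pbrm1 were counted apart. By gene symbol, 59 measured genes lie within 10 Mb of Pbrm1 in the RefSeq annotation, and 1 of them met the criteria, against 0.921% of all genes. It was Il17rb, a receptor of IL-17B and IL-25, which rose by 0.52 (4.32, 4.71 and 4.70 in WT against 4.98, 4.81 and 5.5), and the median difference of the 59 was -0.02. Chromosome 1 held 10 of the 96 genes, or 1.77% of the 564 measured there, and chromosome 19 held none of 365, beside the same 0.921% of all genes.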

How the data were processed

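Total RNA of each sample was labelled as cRNA and hybridized to an Illumina MouseRef-8 v2 BeadChip. The authors deposited the average bead intensity per probe from GenomeStudio, neither normalised nor background-subtracted, with a detection p-value per probe and array. The submitters' processing notes name GenomeStudio 1.6.0. All 24 arrays were corrected for background, shifted by an offset of 16, put on the log2 scale and quantile normalised with neqc (limma 3.58.1, R 4.3.3), which lowers differences of dim probes. Of 25697 probes, 14246 passed a detection p of 0.02 on some array and were kept. The limma model held 8 group means (16 residual degrees of freedom), with Benjamini-Hochberg adjustment over the kept probes. The FDR and p of the 4 criteria came from limma, not from the significance analysis of microarrays used in the methods, and the Z-ratio came from differences of neqc log2 values, not of Z-scores. Precision is limited by having 3 arrays per group, and an exact permutation of 3 against 3 cannot give a two-sided p below 0.1.

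A list is described by counts and medians at the brightest probe of each gene. The members, lists and the rule for named genes (Pbrm1, the 12 largest differences in each direction that met the criteria with arrays that did not overlap, the 5 lowest adjusted p in each direction with the letter block, list members counted in either fit, the 4 largest of each list, the genes the study names for Naïve cells and Cd44, with some genes under the rule not reported here) were chosen with earlier results of these data known. Of the 10423 genes, 10276 matched a RefSeq chromosome (GRCm38.p6). Letters were checked as pairs by correlating the deviations of partner arrays, 0.301, 0.136 and 0.516 for A, B and C pooled over the 4 states, and were read as pairs. The labels do not state it, and the 2 C partners differ in Xist. The calling was tested on simulated data with independent noise for each probe and array. The simulation held no effect of replicate letter or of a single array, so it cannot speak to such effects here.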

Additional observations from a re-analysis of the deposited data

Results flagged for a closer look

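For 4930486L24Rik the BAF180-deficient minus WT difference of resting Naïve cells departed from that of stimulated Naïve cells by -1.41 (limma interaction, adjusted p 0.0433) and from that of resting Th2 cells by -1.42 (adjusted p 0.0394), a difference between groups under the same contrast. Its level was near background in stimulated Naïve cells, between 4.16 and 4.23, so that a fall could not have been seen there, and between 7.52 and 8.05 in resting Th2 cells, where it could. Over the alternatives tried the adjusted p lay between 0.00566 and 1.00 against stimulated Naïve cells and between 0.00517 and 1.00 against resting Th2 cells.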

How the results depend on the processing

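The count of 96 genes was 569 with each letter within a cell state as its own replicate block, 0 with the replicate block on the 6 arrays alone (668 probes at an unadjusted p below 0.05 in limma), 1 on the 6 arrays alone without it, 0 with neqc within the 6 arrays (545 probes), 31 with the Z-score of log10 intensity, 15 at an adjusted p below 0.05 and 777 without the FDR criterion, and 82 to 598 when 1 array was left out. Without WT replicate A there were 195, without WT replicate B 184, without WT replicate C 598 and without BAF180-deficient replicate C 170. The share higher was 54.2%, and 45.2% with the Z-score. The difference of Pbrm1 kept its sign throughout but did not pass with the replicate block on the 6 arrays (-1.01, adjusted p 0.944), on the 6 arrays alone (-1.01), with neqc within them (-0.95), at an adjusted p below 0.05 (-1.01) or without BAF180-deficient replicate B (-0.89, adjusted p 0.326), and it ranged from -1.19 to -0.89 with 1 array left out. The median of the Naïve list was -0.22 without WT replicate C and ranged from -0.22 to -0.061. The 1 gene counted near Pbrm1, Il17rb, became 3 with pairs within the cell state and without the FDR, 0 with both fits of the 6 arrays, neqc within them, the Z-score, quantile normalisation without background correction, both narrower detection filters, array weights and the adjusted p below 0.05, and 0 to 2 with 1 array left out. The gene that differed against stimulated Naïve cells and the one against resting Th2 cells became 0 with the replicate block, with pairs and with the Z-score, and 0 to 3 and 0 to 6 with 1 array left out. Against stimulated Th2 cells 0 became 1, Upp1, with the replicate block and with the Z-score, and 0 to 3 with 1 array left out. The cause of these changes was not tested. List medians changed sign: erythroid from 0.15 to -0.15 and heat shock from 0.21 to -0.01 without WT replicate B, B cell from 0.14 to -0.04 without BAF180-deficient replicate C, and myeloid from -0.08 to 0.12 without WT replicate C and 0.16 with array weights. Those of the identity, activation, helper, interferon, p53, cyclin-dependent kinase inhibitor, proliferation and SWI/SNF lists, all within 0.1 of 0 with all arrays, also changed sign under some alternative. The replicate block by letter took the counted B cell members from 1 to 2 by adding Ms4a1. The pairs and the FDR-free count were chosen after seeing the data. Dim probes limit the rest: of the kept probes, 3120 were detected on no resting Naïve array.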

Other observations

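Some large differences did not meet the criteria because the arrays of a genotype disagreed, and these genes were named after their values were seen. Gdpd3, a glycerophosphodiesterase, read 9.63, 4.18 and 4.47 in WT and 10.08, 9.92 and 4.40 in BAF180-deficient cells, so that it was either high or at background on each array. Emb, embigin, an adhesion molecule of early T lineage and other blood cells, read 4.48, 8.92 and 8.56 against 8.98, 8.82 and 8.57, with 1 array at background. Ctsc, the cathepsin that activates granule proteases, read 9.20, 5.07 and 10.46 against 10.25, 9.54 and 9.72. Aim2, a sensor of cytosolic DNA, read 7.03, 4.55 and 4.56 against 6.62, 7.10 and 6.10.

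Ly6c1, a surface antigen of memory CD8 and some CD4 T cells, read 7.45, 9.10 and 8.06 in WT and 4.76, 7.70 and 7.61 in BAF180-deficient cells, lower in each letter. Foxq1, a forkhead factor, read 8.33, 7.64 and 4.90 against 6.73, 4.77 and 4.45, also lower in each letter, with an adjusted p of 0.546 unpaired and 0.0494 with pairs within the cell state. Pip and Bpifa2, secreted proteins of salivary and other glands, read 7.21, 5.79 and 4.27 and 10.02, 8.81 and 4.37 in WT, against 4.33, 4.89 and 4.27 and 5.14, 8.55 and 5.87 in BAF180-deficient cells.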
